A study of Mus with 4 samples.

Results

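Integrins and laminins are the receptors and ligands by which epithelial cells hold on to a basement membrane. The genes were taken as every probe set whose only gene symbol in the platform annotation begins with Itga or Itgb, or names a laminin alpha, beta or gamma chain. This gave 84 of the 45037 probe sets tested, and 39 of the 18193 genes that had a symbol of their own. Of the 39 genes, 25 encode integrin chains, 10 encode laminin chains and 4 share the letters of an integrin symbol without encoding an integrin chain (Itgb1bp1, Itgb1bp2, Itgb3bp and Itgbl1). The rule for membership used gene names and no measured value, but members and lists were chosen with earlier results of these data known. Itga11 and Itgad were not analysed here.

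An integrin is a pair of membrane-spanning chains, 1 alpha and 1 beta, which binds matrix proteins or other cells outside and is tied to actin inside through talin, kindlin and other adaptors. A laminin is a cross-shaped trimer of an alpha, a beta and a gamma chain, and such trimers form the sheet of the basement membrane on which prostate epithelium rests. The pair made of Itga6 and Itgb4 anchors basal epithelial cells through hemidesmosomes to a laminin that holds Lama3 and Lamb3, and prostate carcinoma is known for losing these structures.

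The cells were PPS-ICBR, which the labels give as prostate cancer cells from strain C57Bl6 mice, held as a cell line. Cultures plated at 60% confluency were kept overnight with vorinostat, an inhibitor of histone deacetylases, at 5 µM in DMSO, or with DMSO alone (5 µL in 10 mL of medium), and each condition was measured on 2 expression arrays. All results concern this single line. The labels do not state if the replicate arrays stem from separate cultures, and p-values therefore reflect no more than the spread among these arrays, which could be technical. With 2 arrays a group, precision is limited by their number.

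Expression is the deposited log2 value, and each change is the vorinostat mean minus the DMSO mean with its standard error (SE), from limma's fit across all probe sets with Benjamini-Hochberg adjustment and a threshold of 0.05 on the adjusted p. A gene is represented by its probe set with the highest mean. A probe set is said to lie near background in a group if both arrays of that group were within 1 log2 unit of the highest bacterial trp control, a margin that stood between 3.54 and 3.78 on the 4 arrays. Levels of different genes were not compared, since probes differ in how brightly they bind. The array medians were 4.20, 4.23, 4.26 and 4.28, and 16 probe sets differed by more than 2-fold between the DMSO arrays and 9 between the vorinostat arrays, none of them integrin or laminin probe sets. Of 8 luminal epithelial markers all lay above background, among them Krt8, Krt18 and Epcam, and so did all 4 basal markers. Of 4 prostate markers Hoxb13, Fkbp5 and Tmprss2 lay above it, and the secretory gene Pbsn near it in both groups. Of 6 endothelial markers, Pecam1, Tek, Vwf and Emcn lay near background in both groups and Cdh5 and Kdr above it. Of 7 fibroblast markers, 5 lay above background, Col1a1, Col1a2, Pdgfra, Pdgfrb and Dcn, and 2 near it, Lum and Thy1. Some of these markers changed with treatment: among fibroblast markers Pdgfra (1.54) and Dcn (1.26) rose and Pdgfrb (-2.49) fell, and among luminal markers Krt19 (1.10) and Cldn4 (0.77) rose and Krt8 (-1.05) and Cldn7 (-0.46) fell. Mean log2 values over the 7 fibroblast markers were 7.05 and 7.15 on the DMSO arrays and 6.98 and 7.10 on the vorinostat arrays, which overlap, and the part of such cells in the results was not tested. Each array averages its whole culture, so a change in the share of cells that make a transcript and a change in RNA per cell cannot be told apart.

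Vorinostat-treated cells had higher values of a set of matrix receptor chains, Itgb5, Itga1, Itgb3, Itga4, Itga7, Itgav and Itgb1, and of the laminin chains Lama3, Lamb3, Lama4, Lama5 and Lama2. The leukocyte beta chain Itgb2, the epithelial beta chain Itgb6 and the integrin-like secreted protein Itgbl1 were lower. In all, 12 of the 39 genes rose and 3 fell, against 20.9% and 18.9% of all genes, and the 15 that passed are a share (38.5%) close to that of all genes (39.9%). Leaving aside genes near background in both groups, 14 of 34 members passed, against 6990 of 13543 genes. Among the 25 integrin chains 7 rose, 2 fell and 16 did not pass, with a median change of 0.01. Among the 10 laminin chains 5 rose, none fell and 5 did not pass (limma), with a median of 0.27, where the median of all genes was 0.03. Of the 5 laminin chains that did not pass, 2 were lower at an unadjusted p under 0.05. By measured means, rises of at least 2-fold occurred in 4 integrin genes, Itgb5, Itga1, Itgb3 and Itga4. Falls of that size occurred in Itgb2 and Itgbl1, where 5.74% of all genes rose and 6.17% fell that far. Itgb2 lay near background with vorinostat, so its fall can be stated only as at least 1.92-fold. In 31 of the 39 genes there was no overlap between the groups' arrays, 18 with vorinostat above and 13 below, against 68.9% of all genes.

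**Figure D1:**
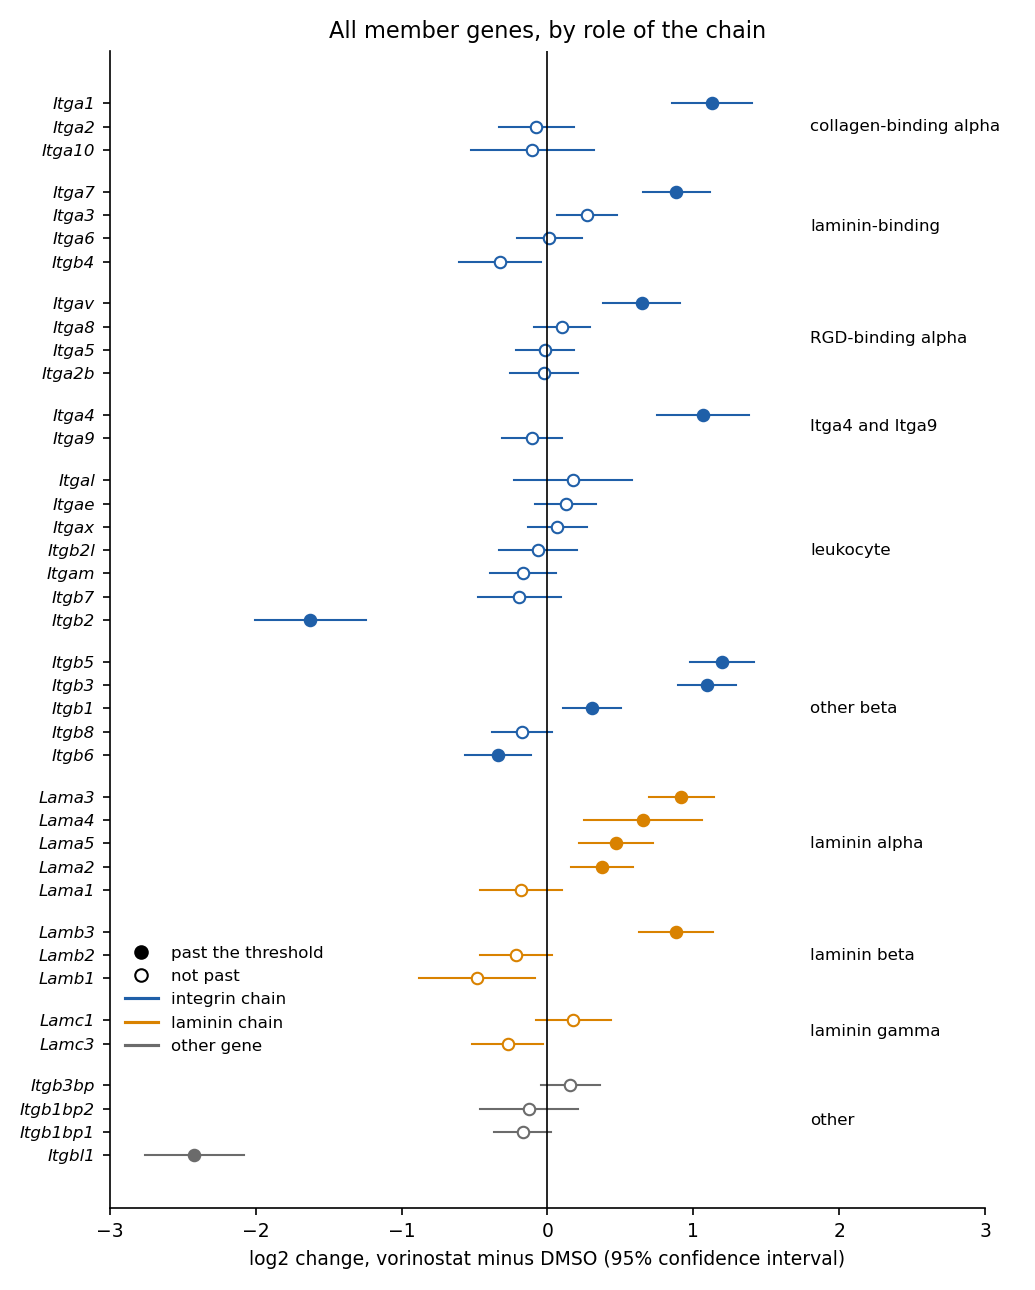
Log2 change (vorinostat minus DMSO) of each of the 39 genes on the horizontal axis, grouped by the role of the chain, with 95% confidence intervals from limma. Filled points passed the threshold. Each integrin role group holds members whose interval spans 0 beside 1 or more that passed, and the laminin alpha chains hold 4 filled points of 5.

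Fits with 3 arrays called fewer genes in all, between 23.5% and 25.8% of all genes in place of 39.9%. The integrin chains that rose numbered 5 without DMSO 1, 5 without DMSO 2, 6 without Vorinostat 1 and 6 without Vorinostat 2, and 1 fell each time. For the laminin chains the numbers that rose were 2, 3, 3 and 2 in that order. Scaling each array on 7 reference genes moved the median of all genes from 0.03 to 0.40, and 16 integrin chains then rose and 1 fell, and 6 laminin chains rose and none fell by limma (none also at an unadjusted p under 0.05), against 62.3% and 11.3% of all genes. Of those 7 genes, Gusb (-1.42, adjusted p = 0.000328, limma) and Polr2a (-0.75, adjusted p = 0.0074) were themselves lower with vorinostat, and the other 5 did not pass. Scaling on the 5 reference genes other than Gusb and Polr2a moved that median to 0.11 and gave 8 integrin chains higher and 1 lower and left the 5 laminin chains that rose. Changes under the scaling on 7 genes are therefore to be read against 0.40. Of the 15 genes that passed, 7 kept their call in every alternative that tested them (Itga1, Itga4, Itga7, Itgb2, Itgb5, Itgbl1 and Lamb3), and 9 passed without each array in turn, those 7, Itgb3 and Lama3.

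Itgb5, the beta chain of a vitronectin receptor with Itgav, had the largest rise of any integrin chain here. Its brightest probe set stood at 7.96 and 7.87 on the DMSO arrays and 9.05 and 9.16 on the vorinostat arrays. Both vorinostat arrays lay above both DMSO arrays by about the same distance, and the mean went from 7.91 ± 0.06 to 9.11 ± 0.08 (SD, n = 2), a change of 1.20 (SE 0.09, adjusted p = 0.000561, limma), or 2.29-fold. All 4 probe sets of Itgb5 passed, with changes from 1.14 to 1.24, and it was the only gene among the 22 with several probe sets for which every one of them did.

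Itgav (probe set 1452784_at), the alpha chain shared by the receptors that recognise the RGD motif of vitronectin and fibronectin, also rose. The array values were 10.64 and 10.64 on the DMSO arrays and 11.17 and 11.40 on the vorinostat arrays. The DMSO arrays agreed within 0.01 and both vorinostat arrays lay above them, with a change of 0.65 (SE 0.10, adjusted p = 0.00719, limma). A second probe set of Itgav changed by 0.67 and passed, and another, averaging 4.98 with DMSO, changed by 0.05 (95% confidence interval -0.34 to 0.44). The remaining pair of probe sets lay near background. Itgav missed the threshold without DMSO 1 (0.65, adjusted p = 0.0785) and also without DMSO 2 (0.65, adjusted p = 0.075), and averaging all 5 probe sets gave 0.17 (adjusted p = 0.251).

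Of the other beta chains that pair with Itgav, Itgb3 rose, Itgb1 rose by a small amount, Itgb8 did not pass and Itgb6 fell at a level near background. Itgb3 (probe set 1455257_at), the partner of Itgav and of the platelet chain Itga2b, had values of 3.59 and 3.60 on the DMSO arrays and 4.65 and 4.72 on the vorinostat arrays. The DMSO arrays stood close to the background margin and both vorinostat arrays about 1 log2 unit above it. The change was 1.09 (SE 0.08, adjusted p = 0.000559, limma), while a second probe set of Itgb3 changed by 0.21 (SE 0.08, adjusted p = 0.127). That second one was the brighter of the pair with DMSO (3.74 against 3.59) and the dimmer with vorinostat (3.94 against 4.69), so the Itgb3 call rests on taking the probe set that is higher over all 4 arrays. Taking the probe set with the highest DMSO mean, an alternative chosen after seeing the data, changed the representative of no other member. Itga2b itself, which joins Itgb3 in the fibrinogen receptor of platelets, had a change of -0.02 (95% confidence interval -0.26 to 0.21) with overlapping arrays, and 0.34 under reference-gene scaling, close to that scaling's shift.

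Itgb1 (probe set 1426918_at), the beta chain common to most matrix receptors, stood at 10.69 and 10.62 on the DMSO arrays and 10.95 and 10.97 on the vorinostat arrays and so changed by 0.30 (SE 0.08, adjusted p = 0.0365, limma). The groups did not overlap, but the difference is small and the call was lost without each array in turn: without DMSO 1 (0.34, adjusted p = 0.0926), DMSO 2 (0.27, adjusted p = 0.128), Vorinostat 1 (0.31, adjusted p = 0.143) or Vorinostat 2 (0.30, adjusted p = 0.144). A second bright probe set of Itgb1 passed at 0.33, and the other 4 did not, with changes from 0.05 to 0.38.

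Itgb8, which like Itgb6 binds latent TGF-beta together with Itgav, went from 7.46 ± 0.01 to 7.28 ± 0.06 (SD, n = 2). Both vorinostat arrays lay below both DMSO arrays, but the change of -0.17 (95% confidence interval -0.38 to 0.03) did not pass. Itgb6 had values of 3.12 and 3.24 on the DMSO arrays and 2.79 and 2.89 on the vorinostat arrays. All of these lie near background, so the called change of -0.34 (SE 0.09, adjusted p = 0.0374, limma) compares dim values with each other and carries no fold. It was lost without DMSO 1 (-0.40, adjusted p = 0.0877), DMSO 2 (-0.28, adjusted p = 0.149), Vorinostat 1 (-0.29, adjusted p = 0.184) or Vorinostat 2 (-0.39, adjusted p = 0.107), and turned to 0.03 under reference-gene scaling. The fibronectin receptor chain Itga5 had a change of -0.02 (95% confidence interval -0.21 to 0.18) with overlapping arrays, and the nephronectin receptor chain Itga8 lay near background in both groups.

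Among the alpha chains that bind collagen, Itga1 rose while Itga2 and Itga10 did not pass. Itga1 (probe set 1455251_at), which with Itgb1 prefers the collagen of basement membranes, had values of 3.67 and 3.90 on the DMSO arrays and 4.96 and 4.86 on the vorinostat arrays. The DMSO arrays lay just above the background margin and both vorinostat arrays about 1 log2 unit higher. Its mean went from 3.78 ± 0.17 to 4.91 ± 0.07 (SD, n = 2), a change of 1.13 (SE 0.11, adjusted p = 0.00126, limma) or 2.18-fold, and a second probe set lay near background. Itga2, which prefers fibrillar collagen, changed by -0.08 (95% confidence interval -0.33 to 0.18). For Itga10, known from cartilage, the change was -0.10 (95% confidence interval -0.53 to 0.32), and in both genes the arrays of the groups overlapped.

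**Figure D2:**
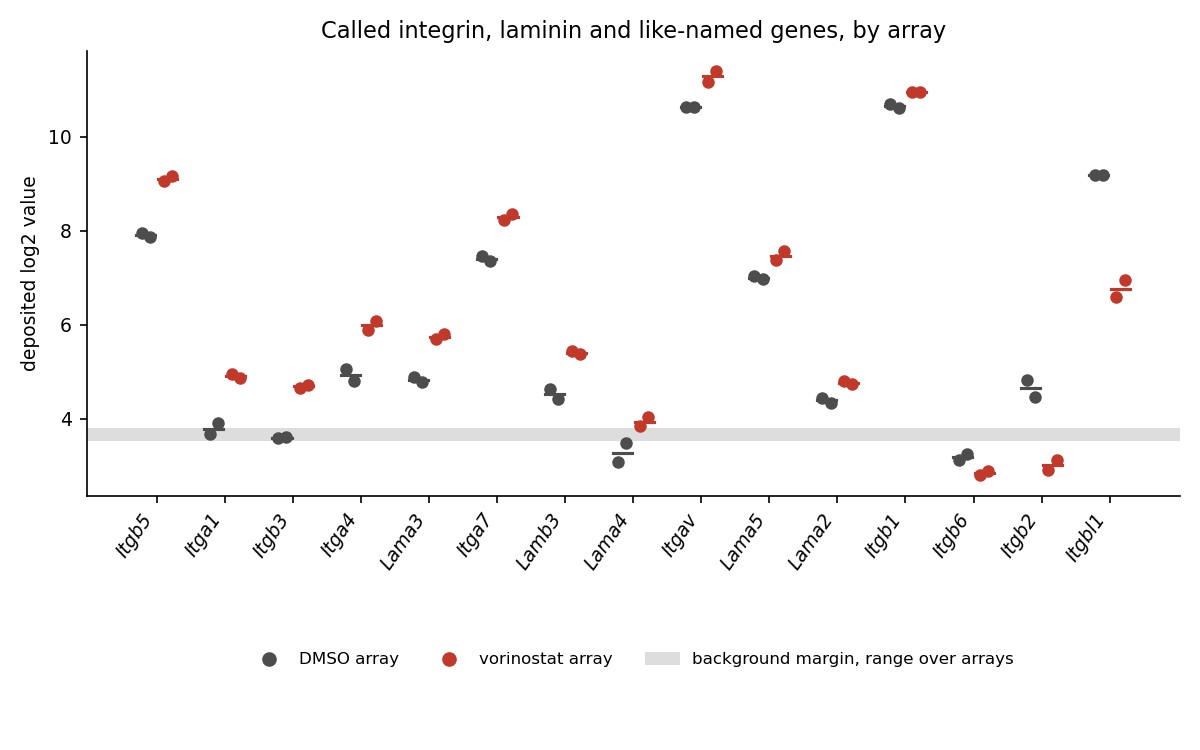
Deposited log2 values of the 15 genes past the threshold on each array (points; DMSO grey, vorinostat red), with group means as short lines and the range of the background margin over the arrays as a grey band. The vorinostat and DMSO points do not overlap in any of the 15, the Itgb6 points lie below the band in both groups, and below it also lie the vorinostat points of Itgb2 and the DMSO points of Lama4.

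Of the integrin chains that bind laminin, Itga7 rose, and Itga3, Itga6 and Itgb4 did not pass. Itga7, the laminin receptor chain best known from muscle, stood at 7.47 and 7.35 on the DMSO arrays and 8.23 and 8.35 on the vorinostat arrays. The 4 values form a pair of tight groups, and the change was 0.88 (SE 0.09, adjusted p = 0.00159, limma) or 1.85-fold. It has a single probe set, so no second one can be set beside it.

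Itga3, the receptor chain for the laminins that contain Lama3 or Lama5, had values of 8.46 and 8.46 on the DMSO arrays and 8.68 and 8.77 on the vorinostat arrays. Vorinostat lay above DMSO on every array at this probe set, by 0.27 (95% confidence interval 0.07 to 0.47), and narrowly missed the threshold (adjusted p = 0.057, limma). The other Itga3 probe sets changed by 0.21 and 0.22 and did not pass either. It passed in 5 alternatives, among them an intensity trend in the variance (adjusted p = 0.00921).

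Itga6 and Itgb4, the chains of the hemidesmosome receptor, gave no called change. Itga6 (probe set 1422445_at) stood at 9.73 and 9.70 on the DMSO arrays and 9.65 and 9.79 on the vorinostat arrays, with overlapping groups and a change of 0.01 (95% confidence interval -0.21 to 0.23), and its second probe set gave 0.08. The Itgb4 values were 4.16 and 4.10 on the DMSO arrays and 3.68 and 3.93 on the vorinostat arrays. Both vorinostat arrays were lower, but the change of -0.32 (95% confidence interval -0.60 to -0.04) did not pass (adjusted p = 0.0819, limma), and it passed when the values were quantile-normalized again (-0.38, adjusted p = 0.0486).

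Itga4 (probe set 1436037_at), which binds fibronectin and the adhesion molecule VCAM1, rose, and its relative Itga9, a receptor of tenascin and osteopontin, did not pass. The Itga4 array values were 5.05 and 4.79 on the DMSO arrays and 5.90 and 6.09 on the vorinostat arrays. Both vorinostat arrays lay above both DMSO arrays, with a change of 1.07 (SE 0.12, adjusted p = 0.00233, limma) or 2.1-fold. Itga4 has 4 further probe sets, all near background with DMSO, of which 1 passed at 0.45 and the others changed by 0.46, 0.29 and -0.12. Itga9 changed by -0.11 (95% confidence interval -0.31 to 0.10), and Itgb7, the other beta chain that pairs with Itga4, by -0.19 (95% confidence interval -0.48 to 0.09).

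Itgb2 (probe set 1450678_at), the beta chain of the leukocyte integrins, had the largest measured difference of any integrin chain. Its values were 4.82 and 4.46 on the DMSO arrays and 2.91 and 3.13 on the vorinostat arrays. The DMSO arrays lay clearly above the background margin and the vorinostat arrays near background, so the fall is given as at least 1.92-fold, where the measured means differ by -1.62 (SE 0.15, adjusted p = 0.00109, limma). Itgb2 has 1 probe set and lost its call in none of the alternatives that tested it.

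The alpha chains that pair with Itgb2 did not pass. Itgam, of the complement receptor of macrophages and neutrophils, lay near background in both groups. Itgal, of the lymphocyte receptor for ICAM proteins, changed by 0.17 (95% confidence interval -0.23 to 0.58), and Itgax, known from dendritic cells, by 0.07 (95% confidence interval -0.13 to 0.27). Nor did Itgae (0.13, 95% confidence interval -0.08 to 0.33), whose product binds E-cadherin, or the Itgb2-like chain Itgb2l (-0.06, 95% confidence interval -0.33 to 0.20). Itgae lay near background with vorinostat and close to the background margin with DMSO, at 3.54 and 3.44.

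Markers of leukocytes were set beside the Itgb2 values. Of 9 measured, 3 lay near background in both groups (Ptprc, Adgre1 and Itgam), 2 rose (Cd3e by 0.43 and Coro1a by 1.33) and 1 fell (the endotoxin co-receptor Cd14, with a change of -1.67). The others were near background in neither group and did not pass. Csf1r went from 4.77 to 4.95, Laptm5 from 5.31 to 5.07 and Cd79a, close to the margin, from 3.74 to 3.82. Coro1a lay near background with DMSO, so its rise is given as at least 2.20-fold. The mean log2 value over the 9 was 4.16 and 4.20 on the DMSO arrays and 4.14 and 4.21 on the vorinostat arrays, which overlap. This mean pools the rises with the fall. Ptprc, carried by all leukocytes, averaged 2.13 with DMSO and 2.20 with vorinostat. For platelets, the source best known for Itga2b, Pf4 lay near background in both groups, Gp9 went from 5.04 to 5.11 without passing, and Ppbp rose by 0.82, from 4.58 to 5.40. The fourth measured platelet marker is Itga2b itself.

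Of the laminin chains, 4 of 5 alpha chains and 1 of 3 beta chains rose, where 20.9% of all genes did, and neither gamma chain measured passed. The classes were not tested against each other, and the calls of Lama2, Lama4 and Lama5 were each lost without some single array. For all 10 the arrays of the groups did not overlap, 6 with vorinostat above and 4 below, where 68.9% of all genes did not overlap. Lama3, the alpha chain of the hemidesmosome laminin, had values of 4.88 and 4.78 on the DMSO arrays and 5.70 and 5.80 on the vorinostat arrays. The change was 0.92 (SE 0.09, adjusted p = 0.00126, limma) or 1.89-fold, and a second probe set that lay near background changed by 0.05. Its partner Lamb3 stood at 4.63 and 4.42 on the DMSO arrays and 5.43 and 5.37 on the vorinostat arrays. Both vorinostat arrays lay above both DMSO arrays, by 0.88 (SE 0.10, adjusted p = 0.00223, limma) or 1.84-fold, and the 95% confidence intervals of the Lama3 and Lamb3 changes were 0.69 to 1.14 and 0.62 to 1.14.

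Lama5 (probe set 1427009_at), the alpha chain most widespread in adult epithelial basement membranes, rose to a lesser degree. Its values were 7.03 and 6.98 on the DMSO arrays and 7.37 and 7.58 on the vorinostat arrays. The change was 0.47 (SE 0.10, adjusted p = 0.019, limma), and a second probe set passed at 0.59. The call of the brightest probe set was lost without DMSO 1 (0.50, adjusted p = 0.107), DMSO 2 (0.45, adjusted p = 0.122) or Vorinostat 2 (0.37, adjusted p = 0.0945).

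Lama2 (probe set 1426285_at), the alpha chain of muscle and peripheral nerve, stood at 4.44 and 4.34 on the DMSO arrays and 4.79 and 4.73 on the vorinostat arrays. The groups were separate and the change was small, at 0.37 (SE 0.08, adjusted p = 0.0232, limma). It missed the threshold without DMSO 1 (0.42, adjusted p = 0.0722), DMSO 2 (0.32, adjusted p = 0.106), Vorinostat 1 (0.34, adjusted p = 0.132) or Vorinostat 2 (0.40, adjusted p = 0.092).

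Lama4 (probe set 1424807_at), the alpha chain of vessel walls, had values of 3.07 and 3.48 on the DMSO arrays and 3.84 and 4.03 on the vorinostat arrays. The DMSO arrays lay near background and the vorinostat arrays just above it, so Lama4 was at least 1.22-fold higher with vorinostat, with measured means that differ by 0.66 (SE 0.16, adjusted p = 0.0296, limma). Lama4 missed the threshold without DMSO 1 (0.45, adjusted p = 0.116), Vorinostat 1 (0.75, adjusted p = 0.119) or Vorinostat 2 (0.56, adjusted p = 0.185). The embryonic chain Lama1 lay near background in both groups.

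Lamb1, the beta chain of most laminins, leaned the other way. Its brightest probe set read 10.30 and 10.04 on the DMSO arrays and 9.51 and 9.86 on the vorinostat arrays. The vorinostat arrays were lower, but replicates of each group also differed by 0.26 and 0.36, and the change of -0.48 (95% confidence interval -0.88 to -0.09) did not pass (adjusted p = 0.0718, limma). A dimmer probe set did (-0.60, SE 0.16, adjusted p = 0.037) and a similar one did not (-0.54, adjusted p = 0.0552). The remaining probe set, near background in both groups, changed by 0.50 with overlapping arrays and did not pass. Lamb1 was the 1 gene whose brightest probe set missed the threshold while another passed, and with an intensity trend the brightest one also passed (adjusted p = 0.0165).

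Lamb2, the beta chain of kidney filter and nerve-muscle junction, changed by -0.22 (95% confidence interval -0.46 to 0.03) and did not pass. Lamc1, the gamma chain of most laminins, had values of 7.43 and 7.32 on the DMSO arrays and 7.45 and 7.65 on the vorinostat arrays. Vorinostat was slightly higher on both arrays, by 0.18 (95% confidence interval -0.08 to 0.43), and a second probe set changed by 0.07 with overlapping arrays. Lamc3 changed by -0.27 (95% confidence interval -0.51 to -0.03, adjusted p = 0.0915, limma), while its dimmer probe set, near background in both groups, changed by 0.41. In the trimer of Lama5, Lamb1 and Lamc1, then, only the alpha chain had a called change at its brightest probe set. That contrast rests on the threshold, since Lama5 changed by 0.47 and Lamb1 by -0.48. A dimmer Lamb1 probe set passed at -0.60, and Lama5 lost its call with the replicate block.

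The largest change among the 39 genes belonged to one that is not an integrin chain. Itgbl1 (probe set 1425039_at) encodes a secreted protein made of repeats like those in the stalk of integrin beta chains. Its values were 9.19 and 9.19 on the DMSO arrays and 6.59 and 6.95 on the vorinostat arrays. Both DMSO arrays were nearly identical and both vorinostat arrays far lower, a change of -2.42 (SE 0.13, adjusted p = 0.000305, limma), so that DMSO exceeded vorinostat 5.35-fold. The other 3 genes of the pattern did not pass. These were Itgb1bp1, which binds the tail of the beta chain encoded by Itgb1 (-0.17, 95% confidence interval -0.36 to 0.02), the kinetochore protein gene Itgb3bp (0.16, 95% confidence interval -0.05 to 0.36) and the muscle chaperone gene Itgb1bp2, near background in both groups.

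Over single probe sets, 19 of the 84 rose and 4 fell, against 16.5% and 15.7% of all probe sets (32.2% in either direction). Of the 84, 28 lay near background in both groups, and 2 of these passed, 1 of Itga4 and 1 of Itgb6. Probe sets of 1 gene never passed in opposite directions, in any of the 22 genes that have several. In 10 of the 22 some probe sets passed and others did not, and in 11 none did. The median absolute difference over the 84 probe sets was 0.20 between group means, 0.10 between the DMSO arrays and 0.12 between the vorinostat arrays.

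**Figure D3:**
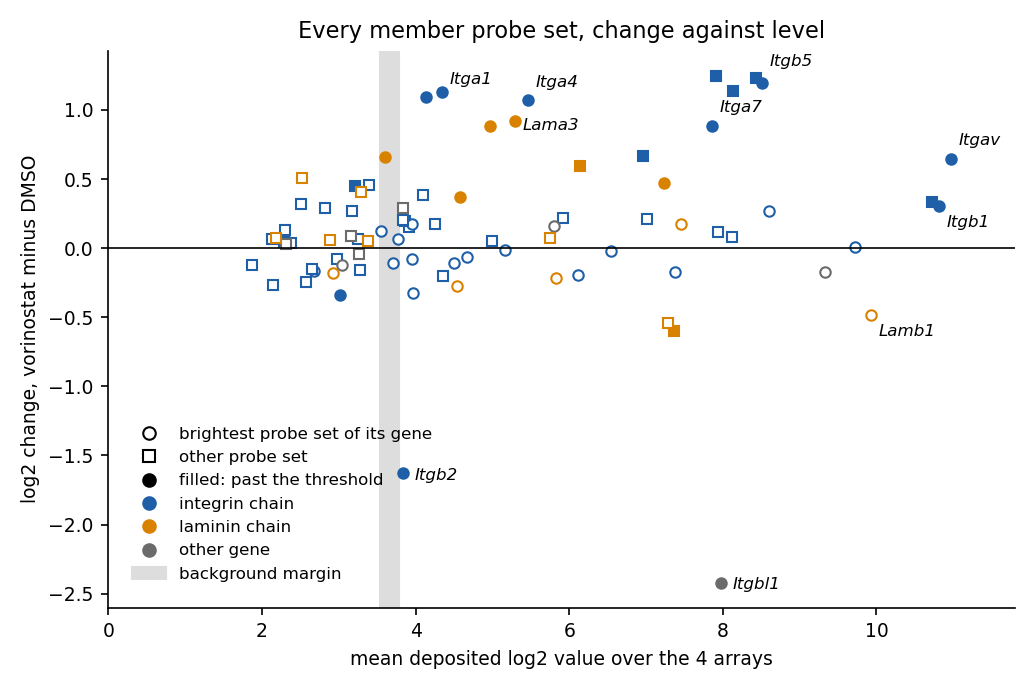
Log2 change (vorinostat minus DMSO) of each of the 84 probe sets against its mean log2 value over the 4 arrays, with circles for the brightest probe set of a gene, squares for the others and filled symbols for those past the threshold. Probe sets to the left of the grey background band lie between -0.34 and 0.50, and the 4 Itgb5 probe sets lie together between 1.14 and 1.24.

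Genes that act with integrins and laminins were counted from lists of ligands, matrix partners, other laminin receptors and cytoplasmic adaptors. The shares of all genes set beside them include 4650 genes near background in both groups. Of the other 13543 genes, 6990 were called. Among list members not near background in both groups, 13 of 20 ligands and 8 of 13 basement membrane genes were called. The same held for 8 of 14 laminin receptors and 15 of 28 adaptors. Of 23 measured ligands other than laminins, 10 rose and 3 fell, with a median change of 0.17, against 20.9% and 18.9% of all genes and a median of 0.03. Thbs2, a matricellular thrombospondin, had values of 8.25 and 8.23 on the DMSO arrays and 10.32 and 10.53 on the vorinostat arrays. This is a rise of 2.18 (SE 0.10, adjusted p = 0.000225, limma), and its other probe sets rose by 1.95 and 1.72. Ccn2, a matricellular protein that binds Itgav and Itgb1 receptors, rose by 2.07 (SE 0.08), from 10.64 ± 0.02 to 12.71 ± 0.00 (SD, n = 2). Vcam1, the counter-receptor of Itga4, had values of 9.94 and 9.86 on the DMSO arrays and 8.21 and 8.46 on the vorinostat arrays. It thus fell by 1.57 on the log2 scale (SE 0.11, adjusted p = 0.000512, limma), while Itga4 itself rose. Other probe sets of Vcam1 changed by -1.51 and -0.68 and passed. The latent TGF-beta binding protein gene Ltbp1 fell by 1.20 on the log2 scale (SE 0.11), and 2 dimmer probe sets of it did not pass (-0.27 and -0.29). The ligands that rose numbered 7 without DMSO 1, 6 without DMSO 2, 8 without Vorinostat 1 and 7 without Vorinostat 2, and reference-gene scaling gave 16 higher and 2 lower, where 62.3% and 11.3% of all genes were.

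Of 17 measured basement membrane genes other than laminins, 6 rose and 2 fell (47.1% called, against 39.9% of all genes), with a median of 0.07. Agrn, the proteoglycan agrin that binds laminin, stood at 6.72 and 6.46 on the DMSO arrays and 7.85 and 7.76 on the vorinostat arrays. Its rise of 1.22 (SE 0.11, adjusted p = 0.00117, limma) was the largest on the list, and a second probe set near background changed by 0.11. The collagen IV chain Col4a5 rose by 0.61 (SE 0.08), against 0.29 at a second probe set that did not pass. Sparc, a collagen-binding matricellular protein, fell by 0.61 on the log2 scale (SE 0.10) and the laminin-binding netrin Ntn4 by 0.51 (SE 0.11). Other probe sets of Sparc changed by -0.62, which passed, and by -0.03, which did not. A dimmer probe set of Ntn4 changed by -0.61 and passed. Sparc missed the threshold without DMSO 1 (-0.65), DMSO 2 (-0.57) or Vorinostat 1 (-0.50). The same held for Ntn4 without DMSO 1 (-0.41), Vorinostat 1 (-0.45) or Vorinostat 2 (-0.58). Omitting DMSO 1 left 3 genes of this list higher and 0 lower, and omitting DMSO 2 left 2 higher and 1 lower. Omitting Vorinostat 1 left 4 higher and 0 lower, and omitting Vorinostat 2 left 2 higher and 1 lower, by limma, where both counts of 0 were 2 at an unadjusted p under 0.05. All genes called fell from 39.9% to between 23.5% and 25.8% in the same fits. Reference-gene scaling gave 14 higher and 0 lower (limma), and 0 lower also at an unadjusted p under 0.05, against 62.3% and 11.3% of all genes.

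A list of laminin receptors outside the integrin family, syndecans, tetraspanins that sit beside integrins, and hemidesmosome and basal keratin genes (Plec, Dst, Col17a1, Krt5 and Krt14) had 7 of 15 measured members higher and 1 lower, against 20.9% and 18.9% of all genes, with a median of 0.23. Plec and Dst, which encode plakins that link hemidesmosomes to the cytoskeleton, are among the 7, and the receptors Dag1, Bcam and Rpsa did not pass. Nor did Col17a1 (-0.27), near background in both groups, Krt5 (0.09) or Krt14 (0.23). Sdc4, a syndecan of focal adhesions, rose by 1.15 (SE 0.08, adjusted p = 0.000511, limma), from 9.70 ± 0.06 to 10.84 ± 0.02 (SD, n = 2), and its second probe set by 0.65. The tetraspanin gene Cd81 rose by 1.07 (SE 0.08), from 10.31 ± 0.02 to 11.38 ± 0.01 (SD, n = 2). Sdc1, the syndecan of epithelia, fell by 0.39 on the log2 scale (SE 0.08). Its dimmer probe sets changed by -0.34 and -0.28, which passed, and by -0.28, which did not. The brightest one did not pass without DMSO 1 (-0.37), DMSO 2 (-0.42), Vorinostat 1 (-0.38) or Vorinostat 2 (-0.41). Leaving out those arrays in that order, 4, 4, 3 and 3 members of this list rose and 0 fell by limma, with 2, 1, 1 and 1 lower at an unadjusted p under 0.05. Reference-gene scaling gave 11 higher and 0 lower (limma), and 0 lower also at an unadjusted p under 0.05, against 62.3% and 11.3% of all genes.

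Among the cytoplasmic partners of integrins, 10 of 28 measured genes rose and 5 fell, against 20.9% and 18.9% of all genes, with a median of 0.14. None of the 28 lay near background in both groups. Of all genes that did not, 6990 of 13543 were called, against 15 of these 28. Pxn, the adaptor paxillin, had values of 9.60 and 9.65 on the DMSO arrays and 11.04 and 10.94 on the vorinostat arrays. Its rise of 1.36 (SE 0.08, adjusted p = 0.000378, limma) was the largest on the list, and all 3 of its probe sets rose, the others by 1.05 and 0.59. The kinase gene Ptk2b, a relative of focal adhesion kinase, rose by 1.16 (SE 0.15), against 0.03 at a second probe set that did not pass. Parva, the actin-binding parvin that joins integrin-linked kinase, had values of 8.76 and 8.64 on the DMSO arrays and 6.89 and 7.00 on the vorinostat arrays. It fell by 1.75 on the log2 scale (SE 0.09, adjusted p = 0.000268, limma), and its second probe set fell by 1.30, while its partner Ilk rose by 0.53 (SE 0.08). The tensin gene Tns3 fell by 0.79 on the log2 scale (SE 0.11) and did not pass without DMSO 1 (-0.77) or DMSO 2 (-0.81). A dimmer probe set of Tns3 changed by 0.10 and did not pass. Leaving out DMSO 1, DMSO 2, Vorinostat 1 or Vorinostat 2 left 5, 5, 4 and 5 of these genes higher and 3 lower each time, and reference-gene scaling gave 21 higher and 4 lower, against 62.3% and 11.3% of all genes.

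**Figure D4:**
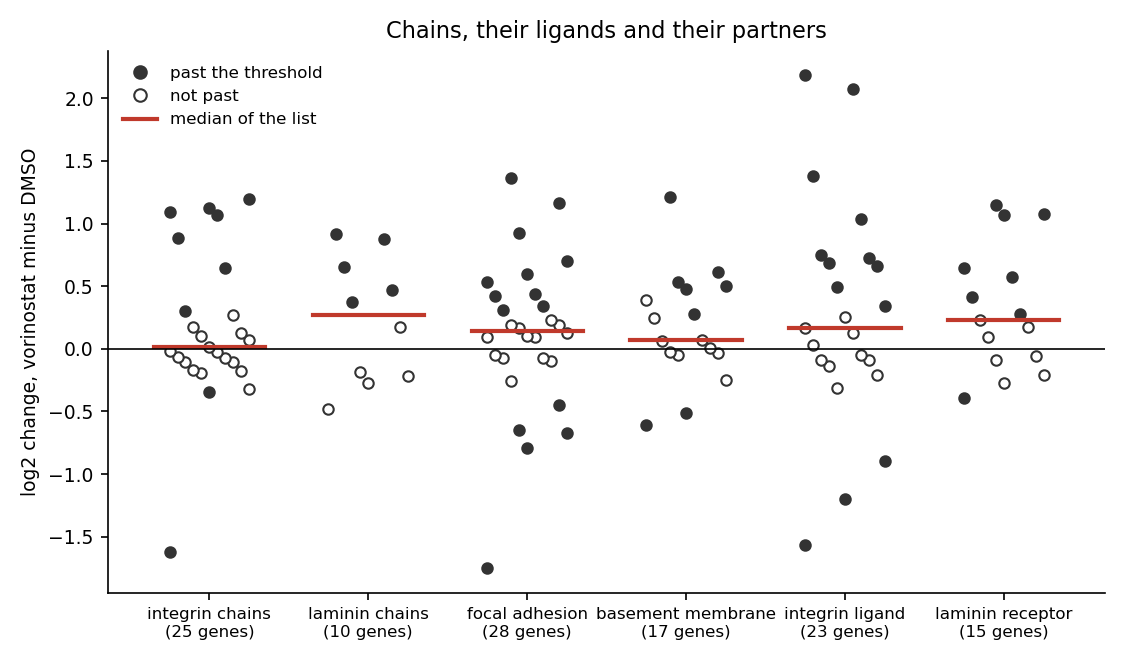
Log2 change (vorinostat minus DMSO) of each measured gene among the integrin chains, the laminin chains and the 4 lists of genes that act with them, with filled points past the threshold and a red line at each list's median. The laminin receptor group also holds hemidesmosome and basal keratin genes. All 6 groups hold points on both sides of 0, and the medians lie between 0.01 and 0.27.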

How the data were processed

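The 4 arrays were analysed from the values the authors deposited, which are log2 expression values of single probe sets on single arrays. Per the submitters' processing notes they were made with RMA in the Transcriptome Analysis Console. The sources used here give neither versions nor a genome build, so no coordinates are printed. Since RMA gives the probe intensities of all arrays one distribution, a shift common to every transcript is not visible. The probe set values summarised from them still differ slightly in distribution, with array medians from 4.20 to 4.28. The scale and direction follow from the labelled columns, and no centring was found. Of 45101 probe sets, 64 controls were left out. The platform annotation gave 1 symbol to 34945 of the other 45037, several to 932 and none used here to 9160. RefSeq's gene table (GRCm38.p6) matched 34741 and changed 0 symbols. The comparison used limma 3.58.1 with R 4.3.3 (lmFit and eBayes, two-sided, all 4 arrays, no block, no filter), checked on simulated data. Every gene of the pattern is named, and of each other list the 2 largest rises and 2 largest falls past the threshold. Ilk, Plec, Dst, Col17a1, Krt5, Krt14, Gusb, Polr2a and the cell markers given with values were named after their values were seen. The members and lists were chosen with earlier results of these data known.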

Additional observations from a re-analysis of the deposited data

How the results depend on the processing

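Leaving out single arrays gave 10 to 15 member probe sets higher and 2 to 2 lower, 1 to 1 integrin chains lower, 2 to 3 laminin chains higher, 4 to 5 focal adhesion genes higher and 3 to 3 lower, 2 to 4 basement membrane genes higher and 0 to 1 lower, 6 to 8 ligands higher, and 3 to 4 laminin receptors higher and 0 to 0 lower by limma (1 to 2 at an unadjusted p under 0.05).

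The labels do not state if same-numbered arrays were paired, so the fit with the replicate block is an alternative. The correlation of DMSO 1 minus DMSO 2 with Vorinostat 1 minus Vorinostat 2 was -0.06, which does not settle the pairing. With the replicate block, 2 member probe sets, 1 integrin chain and 1 basement membrane gene were lower, and Itgb1, Itgb6 and Lama5 lost their calls. Reference-gene scaling gave 58 member probe sets higher and 2 lower, 16 integrin chains higher and 1 lower, 1 gene of the like-named group higher, 21 focal adhesion genes, 14 basement membrane genes, 16 ligands and 11 laminin receptors higher, and 0 basement membrane genes and 0 laminin receptors lower by limma, also at an unadjusted p under 0.05. Under it, where the median of all genes was 0.40, 16 member genes turned from lower to higher values, among them Itgb6 (0.026), which had passed, and 3 that then passed, Itga2b (0.34), Itga5 (0.35) and Itga9 (0.26). Scaling without Gusb and Polr2a, chosen after seeing the data, left 2 member probe sets and 1 integrin chain lower. Renewed quantile normalization gave 7 member probe sets and 1 laminin chain lower, and an intensity trend 1 integrin chain, 1 laminin chain, 2 like-named genes and 3 laminin receptors lower. Among probe sets above the median level, where Itgb2 and Itgb6 were not tested, 0 integrin chains by limma (1 at an unadjusted p under 0.05), 2 laminin chains and 2 laminin receptors were lower. Averaging all probe sets of a gene gave 1 integrin chain lower and 3 laminin chains higher, and preferring probe sets without an s, x or a suffix gave 1 integrin chain and 1 laminin chain lower, and took Lama3 to 0.05. The probe set with the highest DMSO mean, also chosen after seeing the data, took Itgb3 to 0.21 (adjusted p = 0.127, limma) and left 6 integrin chains higher. The causes were not tested.

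Of the 24 member genes that did not pass, 15 passed in some alternative, 10 of them under reference-gene scaling alone. The 15 genes named from the other lists kept sign and call in 179 of 195 comparisons and lost the call in 16. Signal over background limits Itga8, Itgam, Itgb6, Itgb1bp2 and Lama1, which lay near background in both groups. It also limits Itgae and Itgb2, near background with vorinostat, and Lama4, near background with DMSO.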
